A study of Homo sapiens with 12 samples.

Results

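TRA2A and TRA2B are the genes of transformer-2 alpha and transformer-2 beta, and every splicing event of either gene in the deposited tables is described here. Events were chosen by the gene symbol alone. The MISO table held 15 such events among 16199, 12 of TRA2A and 3 of TRA2B, and 13 of them had a value in all 7 columns. The rMATS table held 47 among 143414, 26 of TRA2A and 21 of TRA2B, and 28 of them had a value for all 6 targets. The cells were HEK293T, an established human embryonic kidney line, and all carried a stably integrated lentiviral hairpin. The hairpins targeted PRMT1, PRMT3, PRMT4 (also called CARM1), PRMT5, PRMT6 or PRMT7, or had a scramble sequence as the control. By the labels, 12 libraries of poly(A) RNA were sequenced: 2 hairpins for each target except PRMT6, which has 1, and 1 scramble library. Each table gives 1 value per target. All values below are therefore single values of the authors, without an SD, and differences between them have no replicate check and were not tested. The tables hold splicing values and no transcript levels, so neither the depth of each knockdown nor markers of the cell line were analysed here.

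Transformer-2 proteins are SR-like splicing activators. They carry an RNA recognition motif between stretches rich in arginine and serine, bind GAA-rich RNA, and promote inclusion of the exon they bind. Both genes hold a so-called poison exon near their start, an exon with early stop codons whose inclusion yields transcripts that do not code for the full protein. Transformer-2 proteins are known to bind these exons and so to limit their own levels. PRMTs transfer methyl groups to arginine. PRMT1, PRMT3, PRMT4 and PRMT6 make asymmetric dimethylarginine, PRMT5 makes symmetric dimethylarginine, and PRMT7 makes monomethylarginine.

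In TRA2A the alternative exon lies on the minus strand of chromosome 7 (GRCh37) between the first exon and a constitutive exon of 134 bases (23561326 to 23561459). It has 1 acceptor, at 23562051, and 3 donors, which give exons of 79 bases (23561973 to 23562051), 301 bases (23561751 to 23562051) and 312 bases (23561740 to 23562051). Where the intron after it is kept, the alternative exon and the constitutive exon form 1 exon of 726 bases. A separate exon of 90 bases (23570800 to 23570889) lies upstream. In TRA2B the alternative exon has 276 bases (chromosome 3, 185649365 to 185649640, minus strand) and also lies between the first exon and an exon of 134 bases (185644389 to 185644522). All 7 MISO cassette exon events of both genes matched GENCODE v29 transcripts by the lengths of the exon and of both introns next to it. GENCODE classes the transcripts with the TRA2A exon of 79 bases and with the TRA2B exon of 276 bases as targets of nonsense-mediated decay. It classes the matched transcripts with the TRA2A exon of 301 bases and with the exon of 90 bases as protein-coding, and the matched transcript with the exon of 312 bases as a processed transcript.

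**Figure D1:**
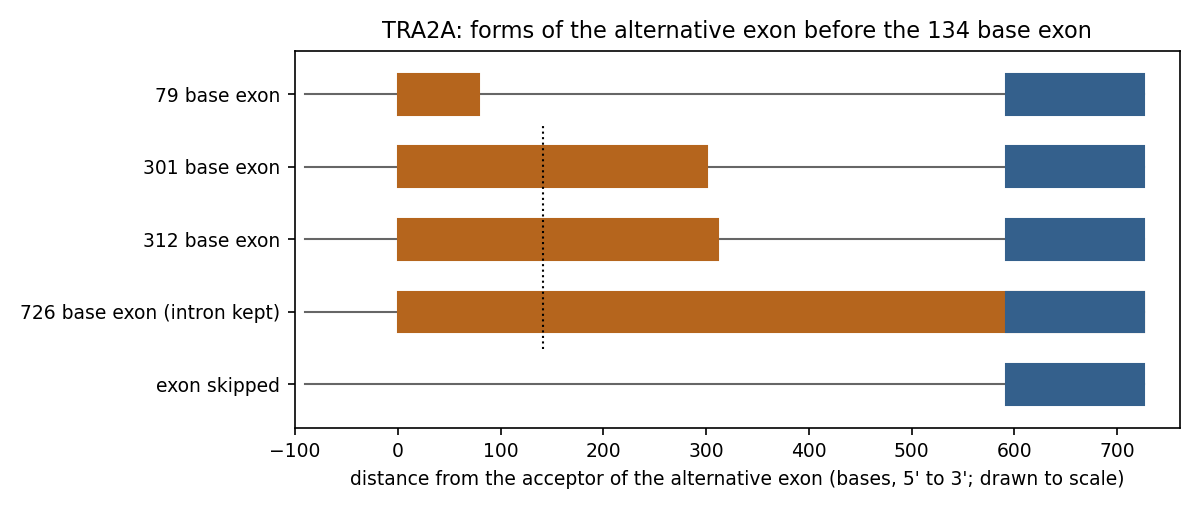
Forms of the TRA2A alternative exon, drawn to scale by the distance in bases from its acceptor (x axis); brown boxes are the alternative exon, blue boxes the constitutive exon of 134 bases and lines introns. The dotted line marks the first stop codon in the frame of the first exon, at base 142, which lies in the forms of 301, 312 and 726 bases but beyond the end of the form of 79 bases.

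The sequences below, read from GENCODE v29 transcripts, show where the reading frame of the first exon ends in each form. Capitals mark the stop codon, and bases are given 5′ to 3′ on the transcript's strand.
TRA2A, 301 base exon: aagattggtcagaTAGaagcacttgaatat
TRA2A, 90 base exon: TGAgcggccgcgtctctgttggaaccggcg
TRA2B, 276 base exon: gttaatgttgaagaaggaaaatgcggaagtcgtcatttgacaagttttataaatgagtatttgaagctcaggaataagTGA
The reference forms without these exons read 282 codons in TRA2A and 288 in TRA2B before the stop. With the TRA2A exon of 301 or 312 bases the frame ended after 59 codons, and with the exon of 79 bases after 63 codons, inside the constitutive exon. The exon of 90 bases opened with a stop codon, so that 12 codons were read. The TRA2B exon ended the frame after 38 codons. In each of these forms the stop lay at least 725 bases before the last exon junction. Reading started at the start codon of the reference form, and other start codons, which GENCODE uses for some of these transcripts, were not considered.

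The donors of the TRA2A exon follow, with the first 2 bases of the intron in capitals, since the choice between them enters several events. They come from a GENCODE transcript that keeps the intron.
TRA2A, donor of the 79 base form: gaaggctaatgaaaaGTattaaagatcaga
TRA2A, donor of the 301 base form: atgaatgggtcctagGTtaagtaaatgtat
TRA2A, donor of the 312 base form: ctaggttaagtaaatGTatggtttatgttc
TRA2A, acceptor of the 134 base exon (last 2 intron bases in capitals): aatactgtcttctttgttAGgagtctcgct
TRA2B, donor of the 276 base exon: aaagcactacgctaaGTaattactagtctg
The donors of the 301 and 312 base forms lie 11 bases apart, and the junction reads of both forms share the acceptor.

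Both alternative exons are rich in the letters that transformer-2 proteins are known to bind. The motif AGAA was counted on the transcript's strand only, with overlapping matches counted. The TRA2A exon of 301 bases held it 13 times and the TRA2B exon of 276 bases 12 times, against 0 times in the constitutive TRA2A exon of 134 bases and 1 time in that of TRA2B. Among inner exons of protein-coding GENCODE transcripts with a length within 10% of the exon's, 0.349% of 3730 held AGAA at least as often as the TRA2A exon, and 0.444% of 5182 at least as often as the TRA2B exon. At least 1 AGAA was present in 78.1% and 76.5% of these exons. The first stretch of 30 bases with the most matches in each exon is shown with AGAA in capitals.
TRA2A, 301 base exon: aaactcaatgaAGAAtgaagAGAAgtAGAA
TRA2B, 276 base exon: tgaaAGAAgtcAGAAtttgaaacggaAGAA

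The main TRA2A exon was included most often in PRMT7 knockdown. Percent spliced in (PSI), which runs as a fraction between 0 and 1 and is the part of an event's transcripts that take the inclusive form, was 0.25 after PRMT1, 0.26 after PRMT3, 0.21 after PRMT4, 0.23 after PRMT5, 0.14 after PRMT6 and 0.46 after PRMT7 knockdown for the form of 312 bases, against 0.20 in scramble. The form of 301 bases had 0.25 after PRMT1, 0.27 after PRMT3, 0.21 after PRMT4, 0.23 after PRMT5, 0.15 after PRMT6 and 0.45 after PRMT7 knockdown, and 0.20 in scramble. PRMT7 knockdown thus stood apart at the top and PRMT6 knockdown lowest, and the other 4 knockdowns lay 0.01 to 0.07 above scramble. These 2 events share the acceptor and all skipping reads and are not separate evidence. The form of 79 bases was rarer, at 0.08 after PRMT1, 0.09 after PRMT3, 0.06 after PRMT4, 0.04 after PRMT5, 0.04 after PRMT6 and 0.13 after PRMT7 knockdown, and 0.05 in scramble. PRMT7 was highest here too, but this event has the same acceptor and skipping reads and is not separate evidence either.

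**Figure D2:**
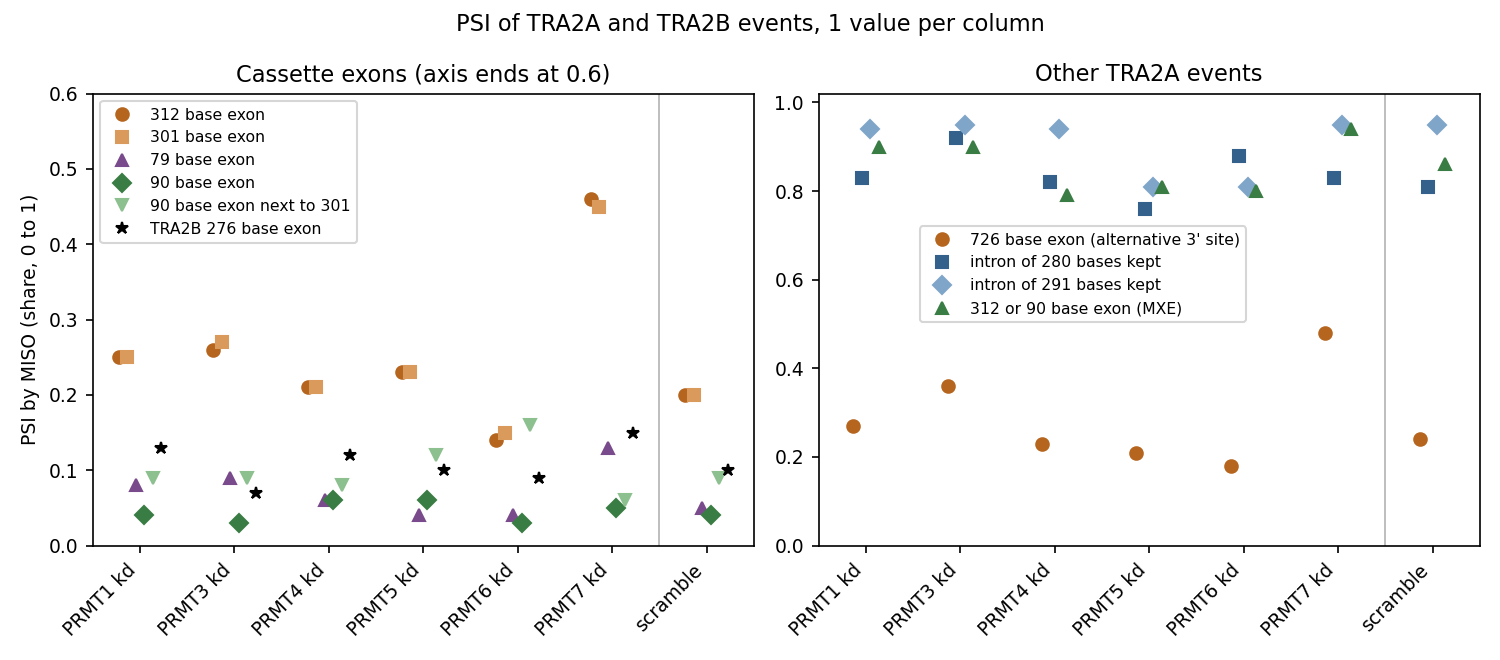
PSI by MISO (y axis, share from 0 to 1) in the 6 knockdowns and scramble (x axis, scramble at the right of the grey line), 1 point per event and column, with no error since each column is 1 value; the left axis ends at 0.6. The TRA2A exon of 312 bases stood at 0.46 in PRMT7 knockdown and at 0.14 to 0.26 in the other knockdowns, against 0.20 in scramble, while the TRA2B exon of 276 bases spanned 0.07 to 0.15 in the knockdowns.

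An event was called differing where PSI differed from scramble by 0.1 or more, which is a rule on size and no test. In PRMT7 knockdown 3 of the 13 members were called, all higher, beside 6.34% of all 10358 events with a value in every column. They were the exons of 312 bases (0.26 higher) and 301 bases (0.25 higher) and the exon of 726 bases (0.24 higher), which overlap. By size, the difference of the exon of 312 bases ranked 15 among the 10358 events of the PRMT7 column. Of the 6050 cassette exons, 6 were at least as much higher there, itself included, which is 0.0992%. It lay 0.242 above the average of the other 5 knockdowns. The rank describes the deposited column and is not a test.

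A smaller difference for the same junctions stood in the rMATS values, the authors' deposited table of differences in PSI. Both tables come from the same libraries, so agreement between them, here and below, is not separate evidence. Its values, read as knockdown minus control, were 0.037 after PRMT1, 0.088 after PRMT3, 0.031 after PRMT4, -0.027 after PRMT5, -0.011 after PRMT6 and 0.112 after PRMT7 for the exon of 312 bases. For the exon of 301 bases the authors' deposited table gave 0.037 after PRMT1, 0.09 after PRMT3, 0.032 after PRMT4, -0.028 after PRMT5, -0.006 after PRMT6 and 0.116 after PRMT7. PRMT7 was thus highest in both tables and PRMT3 next, but the MISO difference in PRMT7 was larger by 0.148 for the exon of 312 bases, and PRMT5 lay above scramble by MISO and below control in the authors' deposited table. There, 5.35% of 74972 cassette exons were at least as much higher in PRMT7 knockdown as the exon of 312 bases. For the form of 79 bases the authors' deposited table gave -0.009 to 0.035, with PRMT3 highest and PRMT7 next (0.031). Where the exon of 90 bases came before the 301 base exon, inclusion of the 301 base exon in the authors' deposited table differed by 0.048 after PRMT1, 0.078 after PRMT3, 0.009 after PRMT4, -0.07 after PRMT5, -0.016 after PRMT6 and 0.068 after PRMT7, so there PRMT3 and not PRMT7 was highest.

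**Figure D3:**
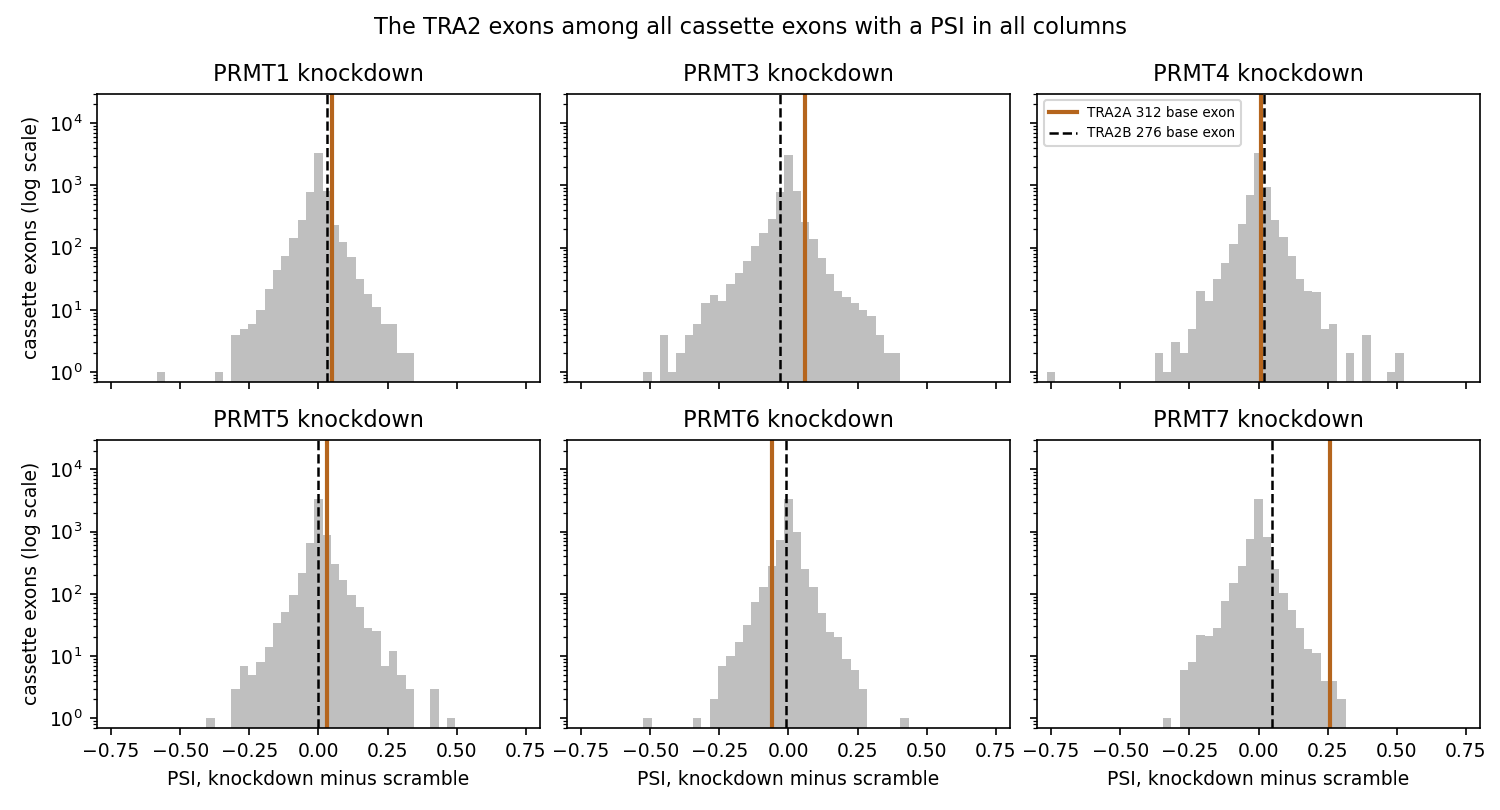
PSI differences by MISO, knockdown minus scramble (x axis), of all 6050 cassette exons with a value in every column, 1 panel per knockdown, with the number of exons on a log y axis; the brown line is the TRA2A exon of 312 bases and the dashed line the TRA2B exon of 276 bases. The TRA2A exon lay at 0.26 in PRMT7 knockdown, among its 6 highest exons, and between -0.06 and 0.06 in the other 5.

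The exon of 726 bases, which uses the same acceptor and keeps the following intron, is listed by MISO as an alternative 3′ splice site. Its PSI was 0.27 after PRMT1, 0.36 after PRMT3, 0.23 after PRMT4, 0.21 after PRMT5, 0.18 after PRMT6 and 0.48 after PRMT7 knockdown, against 0.24 in scramble. PRMT7 and PRMT3 knockdown were the highest and PRMT6 the lowest, the same order at both ends as for the cassette exon, with which it shares junction reads. It was called in PRMT7 and PRMT3 knockdown (0.12 higher). No event with these junctions was matched in the authors' deposited table. There, 2 events measured skipping of the whole 726 base exon, 1 with the exon of 166 bases following and 1 with that of 189 bases. All 9 values lay within 0.006 of 0. Their skipping form also lacks the constitutive exon, so they do not set the 726 base form against the spliced forms.

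Retention of the intron between the alternative and the constitutive exon was measured once for each of the longer donors, and the PSI was high in every column. Both events share the form that keeps the intron and differ in the donor of the spliced form. The choice of donor therefore enters both, and they are not separate evidence on retention. With the donor of the 312 base form (intron of 280 bases, 23561460 to 23561739) PSI was 0.83 after PRMT1, 0.92 after PRMT3, 0.82 after PRMT4, 0.76 after PRMT5, 0.88 after PRMT6 and 0.83 after PRMT7 knockdown, against 0.81 in scramble. PRMT3 was highest and called (0.11 higher), and PRMT5 was the only knockdown below scramble. The authors' deposited table gave 0.071 for PRMT3 and -0.062 for PRMT5, on the same sides, but -0.026 for PRMT6, where MISO was 0.07 higher. For the remaining targets the authors' deposited table gave 0.021 after PRMT1, 0.01 after PRMT4 and 0.048 after PRMT7. With PRMT3 both of its MISO calls, this intron and the exon of 726 bases, were higher: 2 of 13 members, beside 10.5% of all events.

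With the donor of the 301 base form (intron of 291 bases, 23561460 to 23561750) PSI was 0.94 after PRMT1, 0.95 after PRMT3, 0.94 after PRMT4, 0.81 after PRMT5, 0.81 after PRMT6 and 0.95 after PRMT7 knockdown, against 0.95 in scramble. PRMT5 and PRMT6 stood apart below the other columns, each 0.14 lower than scramble. In PRMT6 knockdown the intron of 280 bases, with the same kept form, was 0.07 higher. For PRMT6 the values therefore do not give a change in retention apart from donor choice. In PRMT5 knockdown the intron of 280 bases was also lower, at 0.76 against 0.81 in scramble. What underlies the difference in either knockdown was not tested. In the authors' deposited table PRMT6 alone stood apart (-0.108), and PRMT5 (-0.028) lay no lower than PRMT3 (-0.033), PRMT4 (-0.031) and PRMT7 (-0.029), with PRMT1 at -0.014. The authors' deposited table also held the intron after the 79 base donor (513 bases), with values from -0.022 to 0.019. The intron of 291 bases was the only member called by MISO in PRMT5 knockdown (1 of 13, beside 8.27%) and in PRMT6 knockdown (1 of 13, beside 6.84%). In PRMT1 and PRMT4 knockdown 0 of 13 members were called, beside 7.40% and 7.47% of all events. In all, 2 of the 7 member cassette exons were called in any knockdown, both forms of the same TRA2A exon, beside 18.3% of all 6050 cassette exons.

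**Figure D4:**
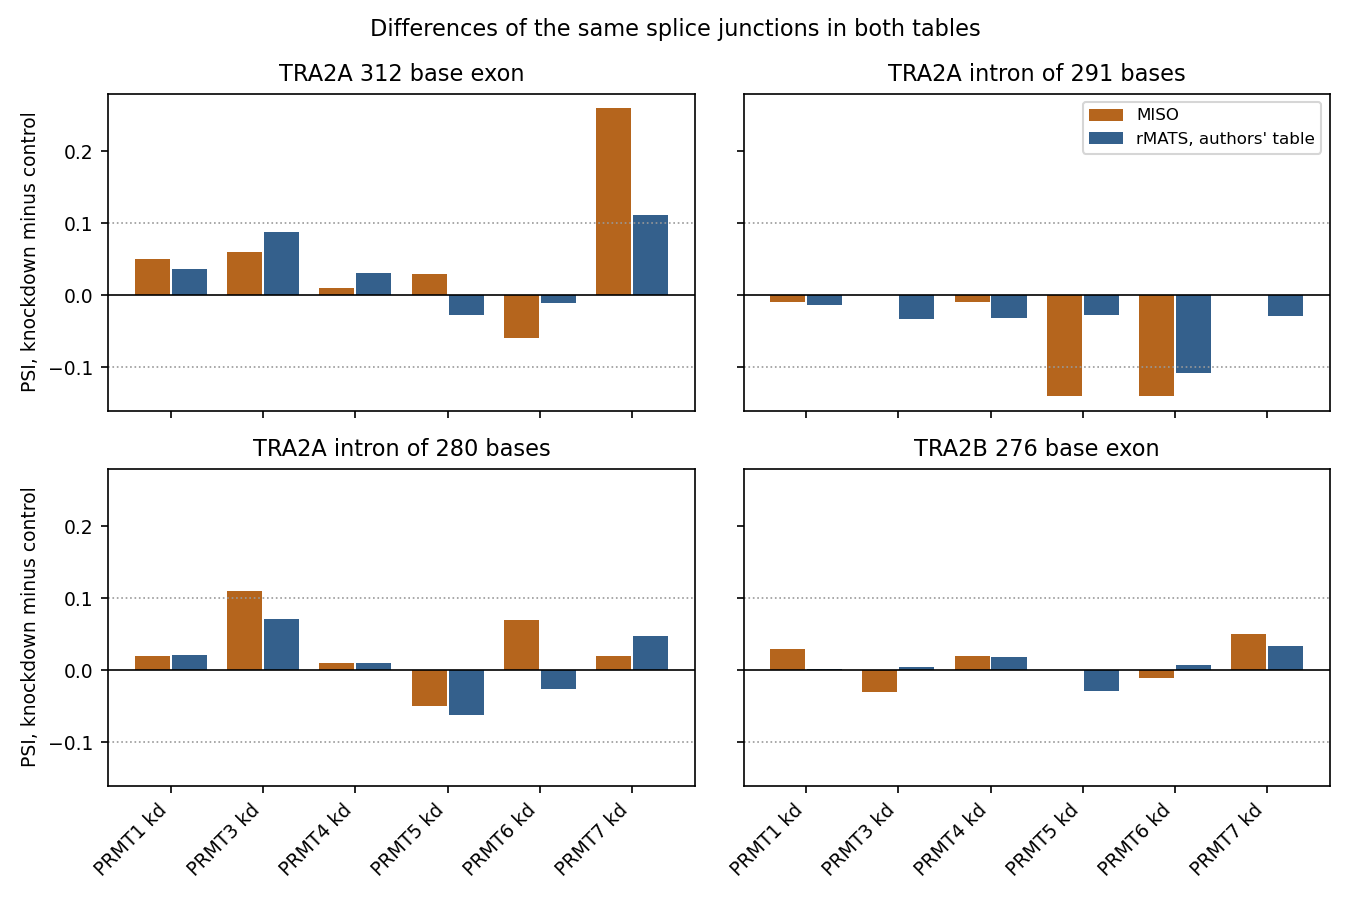
Differences in PSI, knockdown minus control (y axis), for 4 events with the same splice junctions in both tables, by knockdown (x axis); brown bars are MISO differences from scramble, blue bars the authors' rMATS values with their sign turned, and dotted lines mark 0.1 and -0.1. Both tables put the TRA2A exon of 312 bases highest in PRMT7 knockdown (0.26 by MISO, 0.112 in the authors' deposited table), and for the intron of 291 bases PRMT5 and PRMT6 tied as lowest by MISO (-0.14 each), and PRMT6 alone was lowest in the authors' deposited table (-0.108, against -0.028 in PRMT5).

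The choice between the 2 longer donors was listed as an alternative 5′ splice site in the authors' deposited table alone. Use of the 312 base over the 301 base donor differed there by -0.037 after PRMT1, -0.124 after PRMT3, -0.079 after PRMT4, 0.006 after PRMT5, -0.157 after PRMT6 and -0.099 after PRMT7, as knockdown minus control. It was thus lower in each knockdown but PRMT5, past 0.1 in PRMT3 and PRMT6 and just under it in PRMT7. The choice of the 79 base donor over either longer donor stayed within 0.026 of 0 in all 6 targets.

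The upstream exon of 90 bases was rare. By MISO its PSI between the first exon and the constitutive exon was 0.04 after PRMT1, 0.03 after PRMT3, 0.06 after PRMT4, 0.06 after PRMT5, 0.03 after PRMT6 and 0.05 after PRMT7 knockdown, and 0.04 in scramble. Where the 301 base exon followed it, PSI was 0.09 after PRMT1, 0.09 after PRMT3, 0.08 after PRMT4, 0.12 after PRMT5, 0.16 after PRMT6 and 0.06 after PRMT7 knockdown, and 0.09 in scramble, so that PRMT6 was highest and PRMT7 lowest, the reverse of the main exon. The first of these events stood at 0.003 to 0.008 in the authors' deposited table. In the authors' deposited table the second event was above 0 for all 6 targets, highest for PRMT6 (0.086) and lowest for PRMT7 (0.021). The skipping form of the second event joins the first exon to the main exon's acceptor, which counts as inclusion of the main exon. Its reversed order is therefore not separate evidence. MISO also listed the 90 base exon and the main exon as mutually exclusive. For the 312 base form the PSI was 0.90 after PRMT1, 0.90 after PRMT3, 0.79 after PRMT4, 0.81 after PRMT5, 0.80 after PRMT6 and 0.94 after PRMT7 knockdown, and 0.86 in scramble. The table does not say which exon counts as included. The 312 base exon's share of the summed PSI of both cassette events lay within 0.038 of these values in every column, and the 90 base exon's share at least 0.568 away, so the values were read as use of the 312 base exon. With the 301 base form they were the same within 0.01. A further 2 MISO events of TRA2A, another alternative 3′ splice site after the 90 base exon (0.89) and another mutually exclusive event with the 79 base form (0.47), had a value in PRMT4 knockdown alone.

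The TRA2B values by MISO lay closer together. PSI of the 276 base exon was 0.13 after PRMT1, 0.07 after PRMT3, 0.12 after PRMT4, 0.10 after PRMT5, 0.09 after PRMT6 and 0.15 after PRMT7 knockdown, against 0.10 in scramble. No knockdown lay more than 0.05 from scramble, PRMT7 was highest and PRMT3 lowest. The authors' deposited table gave 0.002 after PRMT1, 0.005 after PRMT3, 0.019 after PRMT4, -0.029 after PRMT5, 0.008 after PRMT6 and 0.034 after PRMT7 for the same junctions, so PRMT7 was highest in both. The constitutive exon of 134 bases had 0.96 after PRMT1, 0.99 after PRMT3, 0.98 after PRMT4, 0.98 after PRMT5, 0.97 after PRMT6 and 0.96 after PRMT7 knockdown, and 0.97 in scramble. Its skipping ends the reading frame after 13 codons. An acceptor 24 bases upstream of the 189 base exon, the third TRA2B event, stood at 0 to 0.01 in every column.

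The 276 base exon was also measured where it joins past the 134 base exon, in the authors' deposited table alone. There the differences were -0.123 after PRMT1, 0.101 after PRMT3, 0.102 after PRMT4, -0.064 after PRMT5, -0.098 after PRMT6 and 0.077 after PRMT7. Targets lay on both sides, with PRMT1 lowest and PRMT3 and PRMT4 highest, and the PRMT1 and PRMT3 values are on the side opposite to their MISO differences for the usual junctions (0.03 and -0.03). This event rests on transcripts without the 134 base exon, which the PSI of that exon puts at a small share, and the number of its reads is unknown.

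**Figure D5:**
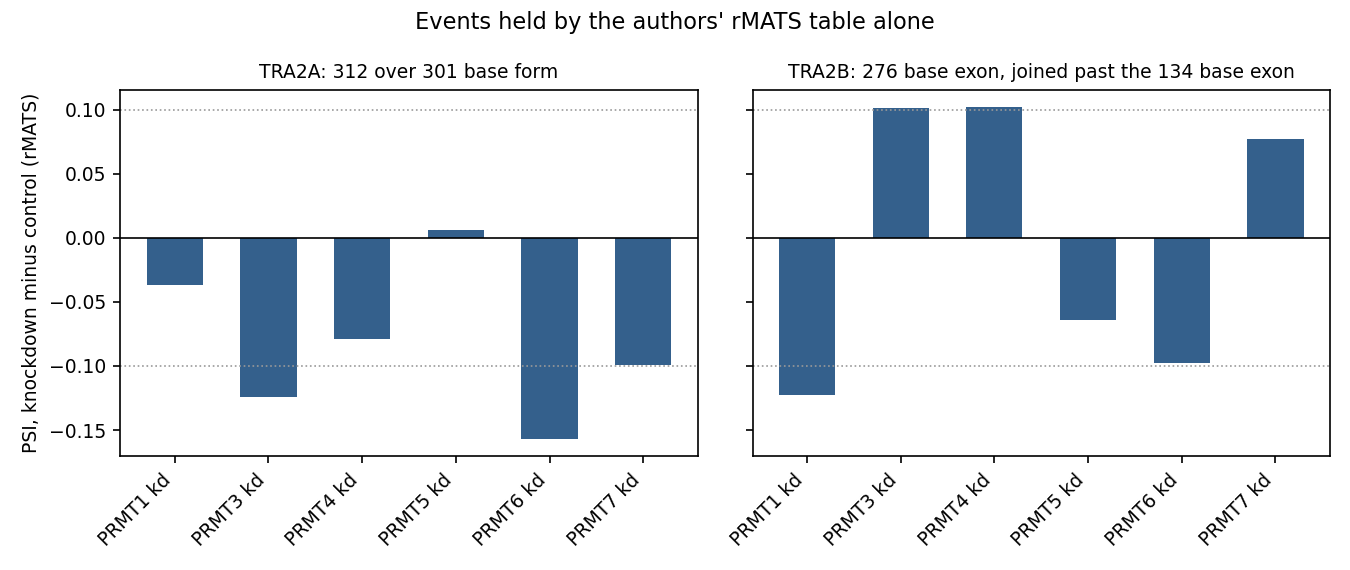
Differences in PSI, knockdown minus control, in the authors' deposited table (y axis) for 2 events that MISO did not list, by knockdown (x axis); dotted lines mark 0.1 and -0.1. Use of the 312 over the 301 base donor of TRA2A was lowest in PRMT6 (-0.157), and the TRA2B exon of 276 bases joined past the 134 base exon ran from -0.123 in PRMT1 to 0.102 in PRMT4.

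Elsewhere along both genes the authors' deposited table held little difference. The 12 TRA2A events downstream, which cover the exons of 189, 166, 134, 129 and 116 bases and an acceptor 3 bases apart, had 44 values between -0.014 and 0.015. Of the 19 other TRA2B events, 16 had 58 values between -0.073 and 0.043. The remaining 3 concern the exon of 116 bases (185639799 to 185639914). Where it joined the exon of 60 bases and the exon of 163 bases, the authors' deposited table gave -1 in PRMT1, -0.471 in PRMT3 and -0.471 in PRMT7 and no value for the other targets. A difference of -1 is the lowest the scale allows. In this context the exons of 84 and 189 bases, which lie on either side of the 116 base exon, are left out. The number of reads behind these 3 values is unknown. In its other 2 contexts, all 4 values of the same exon were 0.

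Counted over the authors' deposited table, 2 of 38 member events with a value were called in PRMT1 knockdown, beside 13.5% of all events, 3 of 32 after PRMT3 (15.7%), 1 of 35 after PRMT4 (14.4%), 0 of 30 after PRMT5 (14.7%), 2 of 31 after PRMT6 (15.8%) and 3 of 36 after PRMT7 (13.4%). The median size of the members' differences was 0.004 to 0.007, against 0.012 to 0.016 over all events. By MISO it was 0.01 to 0.05 for the members and 0.01 to 0.02 over all events. Of 60 pairs of a MISO and an rMATS value for the same junctions and target, 36 had the same sign, 12 the opposite sign and 12 a 0 in either table. Where the MISO difference was at least 0.05, 15 of 16 had the same sign, but the sign of the rMATS values was itself set from MISO differences. The 6 comparisons share the scramble library, so a deviation of that library would enter all of them.

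The cassette exons whose 6 differences lay nearest to those of the TRA2A exon of 312 bases, by root mean square distance over the 6 knockdowns, were in FAM95C (0.0551), EEF1D (0.0594), PAM (0.0594), PPDPF (0.0608) and RANGRF (0.0687) among 6043 exons of the MISO table. The EEF1D exon (EEF1D is a subunit of a translation elongation factor) was 0.21 higher in PRMT7 knockdown. In the authors' deposited table the nearest of 47208 exons were in NIPA2, IRAK2, STRADA, DGUOK and SLC44A1, at 0.0175 to 0.0207, so the 2 tables named different genes. For the TRA2B exon the nearest MISO exons, led by CBWD2 and TAMM41 (0.0122 each), differed little from scramble, as it did.

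Genes around the transformer-2 proteins were counted by MISO in 5 lists, as genes with an event called in any knockdown, beside 32.9% of all 5006 genes measured. No such share was counted for a single knockdown, so gene counts in PRMT7 knockdown alone have no background. Of the SR proteins, the splicing activators that transformer-2 proteins resemble, 5 of 9 measured genes were called. The largest differences were in an intron of SRSF1 (0.67 in PRMT3 knockdown against 0.24 in scramble) and an intron of SRSF5 (0.23 in PRMT5 against 0.50). An alternative 5′ splice site of SRSF2 stood at 0.33 after PRMT1, 0.47 after PRMT3, 0.39 after PRMT4, 0.22 after PRMT5, 0.37 after PRMT6 and 0.33 after PRMT7 knockdown, against 0.21 in scramble. For the largest difference of each of these events the authors' deposited table had no matched value. In PRMT7 knockdown 3 SR protein genes were called, with 3 events higher and 1 lower. Of the kinases that phosphorylate SR proteins, 3 of 7 measured genes were called in any knockdown and 0 in PRMT7. An exon of SRPK1 stood at 0.53 in PRMT1 knockdown against 0.69 in scramble, but the authors' deposited table gave 0.002. Of the genes of nonsense-mediated decay, which degrades transcripts with early stop codons, 2 of 5 were called, among them UPF3A. The UPF3A exon of 161 bases stood at 0.80 after PRMT1, 0.93 after PRMT3, 0.94 after PRMT4, 0.93 after PRMT5, 0.91 after PRMT6 and 0.72 after PRMT7 knockdown, against 0.81 in scramble. It was called higher in PRMT3, PRMT4, PRMT5 and PRMT6 knockdown. PRMT7 was the lowest but less than 0.1 from scramble, and so not called. In PRMT4 knockdown, where the difference was largest (0.13), the authors' deposited table gave 0.049.

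Of the other SR-related factors 3 of 6 measured genes were called: SRRM1 (0.84 in PRMT5 knockdown against 0.70 in scramble), SON (0.23 in PRMT5 against 0.37) and RNPS1 (0.81 in PRMT6 against 0.91). The authors' deposited table gave 0.007 for SRRM1, -0.03 for SON and -0.081 for RNPS1 in the same knockdowns, all under 0.1 in size. Of the genes with exons reported to respond to transformer-2 proteins, 3 of 4 measured genes were called, but SMN1 and SMN2 share 1 event. They are near-identical copies, and how the authors' counting assigned their reads is not given in the sources used here, so the values are uncertain. That exon of 54 bases stood at 0.64 after PRMT1, 0.34 after PRMT3, 0.60 after PRMT4, 0.47 after PRMT5, 0.54 after PRMT6 and 0.51 after PRMT7 knockdown, against 0.52 in scramble, with -0.078 after PRMT3 in the authors' deposited table. An event of CHEK1 with mutually exclusive exons stood at 0.35 in PRMT3 and in PRMT4 knockdown against 0.22 in scramble. Which of its exons counts as included is not stated. Any event of a listed gene was counted, whether or not it holds the exon reported to respond. In PRMT7 knockdown 0 of the 4 genes of this list were called, with no share of all genes there to set this against. NASP had no called event in any knockdown. With few genes a list, these counts describe the lists and set none of them apart.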

How the data were processed

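Stranded libraries were made from the poly(A) RNA of hairpin-carrying HEK293T cells, per the labels' protocols. The submitters' processing notes name cutadapt 1.18, HISAT and GRCh37. The authors deposited PSI from MISO as a fraction from 0 to 1, and a table of rMATS differences in PSI, a score from -1 to 1 with no p-value. Not given in the sources used here are the settings of either tool and how 2 hairpins of a target became 1 value. Read depth is unknown, so no interval is given.

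The members and gene lists were chosen with earlier results of these data known. Every TRA2A and TRA2B event is accounted for, by its values or within a range, and of the other genes at most 4 per list and the 5 nearest exons could be named. A gene called in the list of nonsense-mediated decay is not reported here. No source states the sign of the rMATS differences. Shared splice junctions matched 7131 to 7470 events per target between the tables, and across them, which are not independent, the correlation with MISO differences was -0.589 to -0.347. The deposited values were therefore taken as control minus knockdown, and are printed with the sign turned. No test was planned, since each target has 1 value a table. Sequences are from GENCODE v29 transcripts (GRCh38), matched to events by exon and intron lengths, with no conversion of coordinates. The call rule was run on simulated data with little noise and planted differences well past the threshold. This checks the code and says nothing about the noise of the deposited values. Python 3.11.15, numpy 2.4.6, pandas 2.3.3 and matplotlib 3.10.9 were used.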

Additional observations from a re-analysis of the deposited data

Results flagged for a closer look

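The TRA2B exon of 276 bases joined past the 134 base exon was past 0.1 in opposite directions in different knockdowns: in the authors' deposited table it was 0.102 in PRMT4 and 0.101 in PRMT3 knockdown but -0.123 in PRMT1, a span of 0.225 between PRMT4 and PRMT1. The difference was not tested, since each target has 1 value.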

How the results depend on the processing

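Counts of called members were small and moved with the threshold. The share of all events was counted only at 0.1 against scramble or control, so the other counts here have no background. By size, a MISO difference of 0.05 ranked 1688 among all 10358 events in PRMT6 and 1625 in PRMT7 knockdown. Many events thus pass at 0.05, and many of the members overlap. At 0.05 PSI, MISO called 2 members after PRMT1, 5 after PRMT3, 2 after PRMT4, 3 after PRMT5, 7 after PRMT6 and 7 after PRMT7 knockdown, and at 0.2 PSI 0 in PRMT3, PRMT5 and PRMT6, with the 3 in PRMT7 kept in number. With the average of the other 5 knockdowns in place of scramble, the counts were 0 in PRMT3, 4 in PRMT6 and 5 in PRMT7. In the authors' deposited table the counts at 0.05 were 7 after PRMT3, 3 after PRMT4, 4 after PRMT5, 4 after PRMT6 and 6 after PRMT7 knockdown, and at 0.2 they were 1 in PRMT1, PRMT3 and PRMT7 and 0 in PRMT4 and PRMT6. Against the other 5 targets they were 1 in PRMT1, 1 in PRMT3, 2 in PRMT5, 1 in PRMT6 and 0 in PRMT7, over events with all 6 values, and that filter alone left 1 in PRMT1, 2 in PRMT3 and 2 in PRMT7. Among listed genes at 0.2 PSI, 3 SR proteins stayed called and 0 genes of the other 4 lists. Of the 7 called MISO differences, none changed sign under any alternative run. Taken from the authors' deposited table, 3 of the 5 matched ones stayed past 0.1, and 2 did not: the intron of 280 bases in PRMT3 (0.071) and the intron of 291 bases in PRMT5 (-0.028). Against the other knockdowns, both PRMT3 differences fell short (0.086 and 0.096). The cause was not tested. Unknown depth limits all values. No paired analysis was possible because the columns carry no hairpin number, and for the same reason no library could be left out.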
